A study of Homo sapiens with 10 samples.

Results

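The change between 4 h and 6 h of nutlin-3a was examined in BJ cells, a line of human fibroblasts immortalised by telomerase (hTERT). For each gene the FPKM value (read counts scaled to transcript length and to the size of the library) of the 6 h library was divided by that of the 4 h library of the same assay, and the log2 of this ratio is the step of the gene. Genes with at least 5 FPKM at 4 h or 6 h in both assays were kept, and values below 1 FPKM were set to 1 before the ratio was taken. This left 6667 of the 11258 genes listed for both assays. The untreated library was not used.

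Cells had been kept on nutlin-3a for 2, 4, 6 or 19 h, and each time and assay is represented by 1 library. RNA-Seq was done on poly(A) RNA and gave the RNA step. Ribo-Seq sequences the mRNA fragments that ribosomes cover, from cells given cycloheximide before lysis, and gave the density step. Translational efficiency (TE) is the Ribo-Seq value divided by the RNA-Seq value, on a log2 scale, so the TE step is the density step minus the RNA step. All groups came from the same cell line, which carries hTERT, and the sources used here name no separate cultures. The methods give a dose of nutlin-3a for 6 h and 19 h, which is left out because its unit is doubtful in the text at hand, and the dose at 2 h and 4 h is not given there. With 1 library a group no test of a difference was possible, and a gene was called higher or lower when its step reached 2-fold.

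Nutlin-3a fills the pocket of MDM2 that binds p53, so that p53 is no longer marked for degradation and accumulates. p53 is a transcription factor. It induces CDKN1A, an inhibitor of the cyclin-dependent kinases, and through it the repressor complexes that silence cell-cycle genes from promoters with E2F, CCAAT and CHR elements. It also induces its own inhibitor MDM2, enzymes of metabolism and cell-death genes, and through the sestrins it can restrain mTOR, the kinase on which translation of mRNAs with a 5' pyrimidine tract depends. ATF4 is the transcription factor of amino acid shortage and of the integrated stress response.

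The totals recovered from the FPKM values ran from 24433106 to 27554288 reads in RNA-Seq and, in Ribo-Seq, from 7744900 at 19 h up to 14460726 at 4 h. A tested transcript had a median of 1373 RNA-Seq reads at 4 h and 1568.5 at 6 h, and a median of 729.5 Ribo-Seq reads at 4 h and 452 at 6 h. Counting error gave a step a median SE of 0.054 for RNA, 0.087 for density and 0.10 for TE on the log2 scale; replicate error is not part of it. TERT itself, chosen after its values were seen, had 99.2, 104.5, 39.5 and 68.8 FPKM of RNA at 2, 4, 6 and 19 h. All 10 fibroblast markers were among the tested genes. Of the 6 epithelial markers none was listed for both assays, of the 6 endothelial markers 1 was listed and did not pass the filter, and of the 6 leukocyte markers 1 passed, CD68, a lysosomal protein with 62.7 FPKM of RNA at 4 h and 77.0 FPKM at 6 h.

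More genes were lower than higher at 6 h. In RNA, 62 genes (0.930% of those tested) were higher by at least 2-fold and 263 (3.94%) were lower, around a median step of 0.06. In density 163 genes (2.44%) were higher and 476 (7.14%) lower, around a median of -0.17. In TE 98 genes (1.47%) were higher and 200 (3.0%) lower, around a median of -0.20. Once each step was taken relative to the median gene, the TE split turned to 183 higher and 77 lower, and the density split became 262 and 345, whereas RNA kept 52 and 288. Of the genes called in RNA 324 had recovered read numbers, and in 245 of them the step lay more than 2 counting SEs beyond 2-fold. The same held for 394 of 631 genes called in density and for 125 of 289 called in TE.

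The genes that changed in RNA moved alike in ribosome density. Of the 263 genes lower in RNA, 223 (84.8%) were also lower by at least 2-fold in density, against 7.14% of all tested genes. Of the 62 genes higher in RNA, 39 (62.9%) were also higher in density, against 2.44%. Pearson's r between the RNA and density steps was 0.70 and Spearman's rho 0.55 across the 6667 genes, which are not independent and share their libraries. The libraries of 2 h and 19 h have no library in common with the step. In RNA from 2 h to 19 h, 148 tested genes (2.22%) were higher by at least 2-fold and 446 (6.69%) were lower. These included 38 of the 62 genes higher at the 4 h to 6 h step (61.3%) and 218 of the 263 lower ones (82.9%), whose median change from 2 h to 19 h was -2.82.

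**Figure D1:**
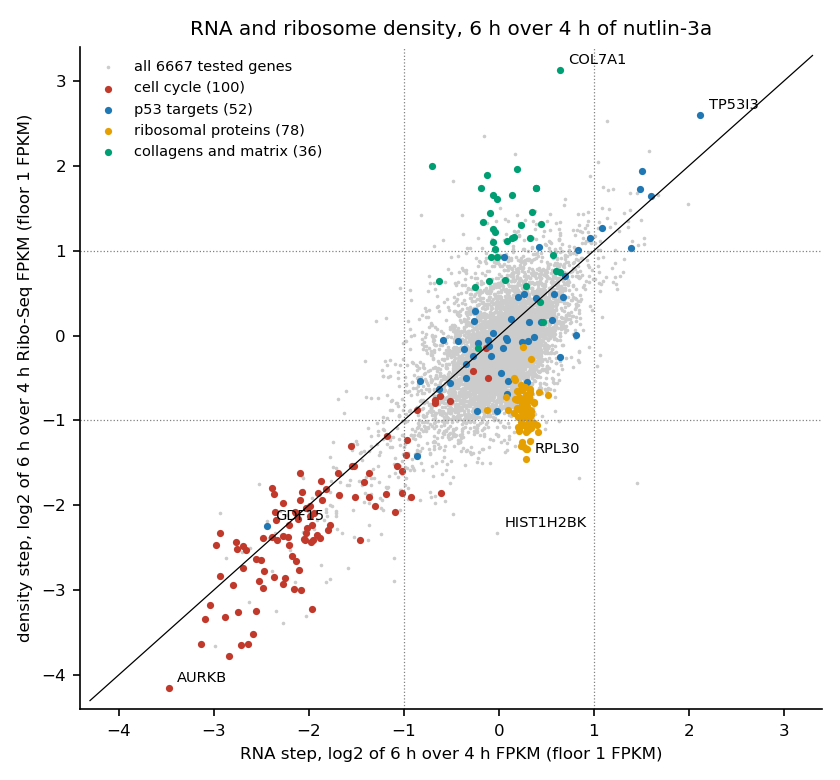
The RNA step (x axis) is plotted against the density step (y axis), both as log2 of 6 h over 4 h FPKM with a floor of 1 FPKM, for the 6667 tested genes as grey points with 4 gene lists in colour. The dotted lines mark 2-fold and the black line equal steps. Cell-cycle genes lie along the line at the lower left, ribosomal proteins lie below it at an RNA step near 0.28, and collagens and matrix genes lie above it.

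Cell-cycle genes made up the main block of the fall. Of 138 genes on the list 125 were in both tables and 100 were tested, and 88 of these fell by at least 2-fold in RNA, 92 in density and 2 in TE, with medians of -2.08, -2.25 and -0.25. The medians over all tested genes were 0.06, -0.17 and -0.20, and 3.94%, 7.14% and 3.0% of them were lower. Each of the 100 tested members was below 0 in both RNA and density. The median member had 23.5 FPKM of Ribo-Seq at 4 h and 4.18 FPKM at 6 h, below the 5 FPKM of the filter. Many members thus passed the filter only through the 4 h library, where they were high, which favours steps below 0. The median member had 26.2 FPKM of RNA at 4 h, 5.67 FPKM at 6 h and 1.98 FPKM at 19 h. In bulk samples, fewer cells in a cell-cycle phase and less RNA per cell cannot be told apart.

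The mitotic kinases and cyclin B genes had a median RNA step of -2.27, with 15 of 16 tested members lower. AURKB, the kinase of the chromosomal passenger complex, had the lowest RNA step of all tested genes. It had 36.4, 30.3, 2.73 and 0.418 FPKM of RNA and 69.6, 60.4, 3.39 and 0.201 FPKM of Ribo-Seq at 2, 4, 6 and 19 h. Both assays were thus high at 2 h and 4 h and low at 6 h, with a step of -3.47 (counting SE 0.15) in RNA and -4.15 (0.22) in density. PLK1, which drives entry into mitosis, went from 33.4 to 4.38 FPKM of RNA, a step of -2.93 (0.09), and from 55.3 to 11.0 FPKM of Ribo-Seq, a step of -2.33 (0.10). BUB1B, a kinase of the spindle checkpoint, had an RNA step of -2.74 (0.10). CCNB1, the mitotic cyclin, had 83.6, 72.2, 17.7 and 3.56 FPKM of RNA in the same order, a step of -2.02 (0.05), and a density step of -2.03 (0.07). PKMYT1, which is not on the list and holds CDK1 inactive, was among the 12 lowest RNA steps at -2.93 (0.12).

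Genes of the kinetochore and spindle were all lower, 19 of 19, with a median RNA step of -2.09. CDCA8, the borealin subunit of the passenger complex, had 40.9, 29.2, 3.57 and 0.389 FPKM of RNA at 2, 4, 6 and 19 h, a step of -3.03 (0.10). NUF2, which binds microtubules at the kinetochore, had an RNA step of -2.84 (0.13) and a density step of -3.78 (0.29). CENPA, the centromeric histone H3, had steps of -2.79 (0.19) and -2.94 (0.22). SPC25 of the same kinetochore complex as NUF2 had a TE step of -1.26 (0.25), 1 of the 2 cell-cycle genes called in TE. Its name, like that of other members outside the rule for named genes, was chosen after its values were seen.

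All 10 tested kinesins and cytokinesis genes and all 11 of chromosome structure were lower in RNA and in density. CEP55, needed for the final cut between daughter cells, went from 38.6 to 6.42 FPKM of RNA and from 26.3 to 2.30 FPKM of Ribo-Seq, steps of -2.59 (0.07) and -3.52 (0.19). MKI67, the proliferation antigen that coats mitotic chromosomes, had 72.4, 50.4, 6.41 and 0.706 FPKM of RNA at 2, 4, 6 and 19 h, and its RNA step was -2.97 (0.03). LMNB1, the B-type lamin, had an RNA step of -2.77 (0.12), and NCAPH of condensin one of -2.69 (0.13). CDCA3, a mitotic factor that is not on the list, was at 9.93 and 1.25 FPKM of RNA at 4 h and 6 h, a step of -2.98 (0.19).

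Most tested DNA replication genes were lower in RNA as well. Of the licensing factors 10 of 11 were lower in RNA, with a median of -2.05, and of the replication fork genes 11 of 14, with a median of -1.5. MCM2, a subunit of the replicative helicase, had 39.9, 21.4, 2.92 and 1.93 FPKM of RNA at 2, 4, 6 and 19 h, a step of -2.88 (0.10), and CDC45 of the same helicase one of -2.75 (0.14). CLSPN, the adaptor of the replication checkpoint, had 6.47 FPKM of RNA at 4 h and 0.862 FPKM, below the floor, at 6 h, and its floored step was -2.69. ASF1B, a histone chaperone outside the list, had one of -2.87 (0.12). These members were already lower at 4 h than at 2 h. The Fanconi anaemia gene FANCI had an RNA step of -2.48 (0.07).

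Nucleotide synthesis was more mixed, with 3 of 6 members lower and a median RNA step of -0.87. RRM2, the regulated subunit of ribonucleotide reductase, had 105.4, 71.4, 8.38 and 1.78 FPKM of RNA and 141.7, 105.9, 10.5 and 1.93 FPKM of Ribo-Seq at 2, 4, 6 and 19 h. Its steps were -3.09 (0.05) and -3.34 (0.08). RRM1, the other subunit, had an RNA step of -1.08 (0.04). TYMS, DUT and TK1 had RNA steps between -0.67 and -0.51 and were not called.

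Among the G1/S regulators 6 of 9 were lower in RNA. MYBL2, the B-MYB factor that activates G2/M genes, had 45.2, 37.1, 4.24 and 0.640 FPKM of RNA at 2, 4, 6 and 19 h, a step of -3.13 (0.09). E2F1, the activator of S-phase genes, had 25.7, 15.4, 2.02 and 0.660 FPKM, a step of -2.93 (0.13). CCNA2, the S-phase cyclin, had an RNA step of -2.36 (0.07). The members nearest to 0 were SKP2 at -0.11 (0.06), CCND1, the cyclin of early G1, at -0.13 (0.01) and PCNA, the replication clamp and itself a p53 target, at -0.28 (0.03). CCND1 had 438.7, 482.5, 440.4 and 448.5 FPKM of RNA at the 4 times.

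**Figure D2:**
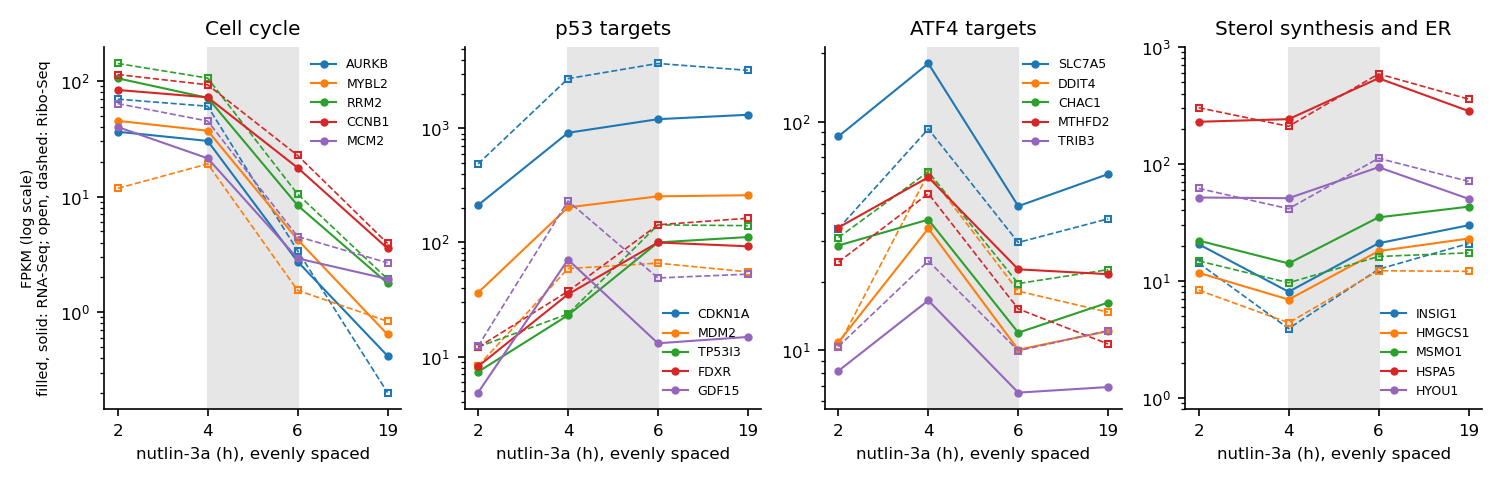
FPKM (log axis) at 2, 4, 6 and 19 h of nutlin-3a, drawn evenly spaced, is shown for 5 genes of each of 4 groups, with 1 library a point. Filled circles on solid lines are RNA-Seq and open squares on dashed lines are Ribo-Seq, and the grey band is the step from 4 h to 6 h. AURKB dropped from 30.3 to 2.73 FPKM of RNA in the band, while GDF15 and the ATF4 targets peaked at 4 h.

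Promoter letters of the cell-cycle genes were searched for the elements through which these genes are known to be silenced. RefSeq promoters (GRCh38.p14) were at hand for 5519 of the 6667 tested genes (82.8%), and the 250 bases before the annotated start were read on both strands. The CHR, TTTGAA, stood in 24 of 85 cell-cycle promoters (28.2%), in 21.5% of those of genes lower in RNA and in 7.76% of all tested ones. Among the lower genes that are not on the cell-cycle list it stood in 22 of 140 (15.7%). CCAAT was in 63.5% of cell-cycle promoters against 36.2% of all, and the E2F core GGCGC in 83.5% against 72.7%. The core of the CRE, TGACG, was in 29.4% against 32.6%. Read on both strands, CCAAT can share a base with TTTGAA, as in TTTGAATTGG, and TGACG can share one with GGCGC.

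The last 100 bases before the start are shown for 4 of the genes with the lowest RNA steps, with the CHR, the CCAAT box and the E2F core on either strand in capitals. MYBL2 (chr20:43667014-43667113, plus strand) shows E2F cores and no CHR. CDCA8 (chr1:37692416-37692515, plus) and MKI67 (chr10:128126424-128126523, minus) have a CHR that runs into a CCAAT box. Among the strings searched, CDCA3 (chr12:6851287-6851386, minus) shows a CCAAT box alone. The E2F core was searched as GGCGC only, and other forms of the E2F site, such as GGCGGGAA, were not searched or marked. A match is a string of letters and not a measured binding site.
MYBL2: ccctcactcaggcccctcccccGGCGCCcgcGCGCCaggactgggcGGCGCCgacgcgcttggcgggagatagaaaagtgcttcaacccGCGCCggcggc
CDCA8: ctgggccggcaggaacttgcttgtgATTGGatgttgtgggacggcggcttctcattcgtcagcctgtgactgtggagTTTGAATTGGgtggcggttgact
MKI67: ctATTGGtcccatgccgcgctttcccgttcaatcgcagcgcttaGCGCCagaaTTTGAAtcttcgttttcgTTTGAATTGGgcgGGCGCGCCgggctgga
CDCA3: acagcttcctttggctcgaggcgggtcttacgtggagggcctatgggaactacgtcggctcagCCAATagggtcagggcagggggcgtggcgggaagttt

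Known p53 targets had RNA steps on both sides of 0, and few were called lower. Of 63 genes on the list 55 were in both tables and 52 were tested. In RNA 6 were higher, 1 was lower and the median was 0.09, with 32 of the 52 above 0. Of all tested genes 0.930% were higher and 3.94% lower in RNA. In density 9 were higher and 2 lower, against 2.44% and 7.14%, with a median of -0.04, and none was called in TE. Lower members were thus no more frequent than among all tested genes. From 2 h to 19 h, 30 of the 52 were higher by at least 2-fold in RNA and none was lower, with a median of 1.14. The shares of all tested genes were 2.22% and 6.69%. CDKN1A had 212, 915, 1204 and 1316 FPKM of RNA and 488, 2729, 3708 and 3227 FPKM of Ribo-Seq at 2, 4, 6 and 19 h. Its levels at 4 h and 6 h were close to each other and far above that of 2 h, and the steps were 0.40 (0.01) and 0.44 (0.01). MDM2 had 36.3, 202.9, 253.6 and 259.4 FPKM of RNA, a step of 0.32 (0.01).

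The p53 targets that rose in this step included enzymes. TP53I3, a quinone oxidoreductase, had 7.34, 23.0, 100.0 and 111.5 FPKM of RNA and 12.1, 23.6, 142.6 and 140.4 FPKM of Ribo-Seq. The 6 h and 19 h libraries were alike and stood above 2 h and 4 h, and the steps of 2.12 (0.05) in RNA and 2.59 (0.06) in density were the highest of the list. FDXR, the mitochondrial ferredoxin reductase, had 8.19, 35.1, 99.9 and 92.5 FPKM of RNA, a step of 1.51 (0.04). CYFIP2 had an RNA step of 1.60 (0.04), SPATA18, which acts in mitochondrial quality control, one of 1.48 (0.05), CMBL, a hydrolase, one of 1.39 (0.06) and TRIM22 one of 1.09 (0.03). In each of these 6 genes the density step was also above 1.

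GDF15, a secreted stress cytokine, went the other way. It had 4.82, 70.7, 13.1 and 14.8 FPKM of RNA and 12.3, 231.0, 48.8 and 52.7 FPKM of Ribo-Seq at 2, 4, 6 and 19 h. The 4 h library stood far above the other libraries in both assays, and the steps were -2.44 (0.08) and -2.24 (0.06). PMAIP1, the BH3-only protein NOXA, had 12.2, 18.4, 10.2 and 10.4 FPKM of RNA with steps of -0.86 (0.10) in RNA and -1.42 (0.13) in density, and BBC3, the BH3-only protein PUMA, had steps of -0.63 (0.08) and -0.63 (0.12). SESN1 and SESN2, the sestrins, parted at this step. SESN1 had 4.33, 20.4, 24.1 and 22.6 FPKM of RNA and a step of 0.24 (0.05), whereas SESN2, which is also an ATF4 target, had 18.0, 37.5, 21.1 and 24.9 FPKM and a step of -0.83 (0.04). ZMAT3 at 0.69 (0.02), RRM2B at 0.68 (0.03) and RPS27L at 0.82 (0.04) were higher at 6 h than at 4 h without reaching 2-fold.

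Genes with the highest steps that are not on the list of p53 targets included PIK3IP1, an inhibitor of PI3K, with 1.28, 1.38, 5.46 and 6.69 FPKM of RNA and a step of 1.99 (0.18). TNFRSF14, a receptor of the TNF family, had a step of 1.58 (0.11), and MXD4, a MAX partner that opposes MYC, had 18.7, 16.5, 47.5 and 48.6 FPKM and a step of 1.52 (0.04). CHRM2 at 1.68 (0.05), PPP1R3C at 1.52 (0.10), RGS2 at 1.49 (0.13) and CRELD1 at 1.45 (0.14) were also among the 12 highest, as were TP53I3, CYFIP2, FDXR and SPATA18. In all 12 genes the RNA at 19 h was also more than 2-fold above that at 4 h. The 4 h value was part of the rule that picked these 12 genes, so this comparison is not separate from their choice. Of the 62 genes higher in RNA 11 were on any of the 19 gene lists, and of the 263 lower ones 114 were.

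A subset of the ATF4 targets was lower at 6 h. Of 30 genes listed 28 were tested, 10 were lower in RNA, 9 in density and none in TE, and none was higher in either assay, with medians of -0.75, -0.66 and -0.03. In RNA 5 of the 28 were above 0. Of all tested genes 3.94% were lower in RNA and 7.14% in density. SLC7A5, the light chain of the leucine transporter, had 86.4, 180.4, 42.8 and 59.2 FPKM of RNA and 34.1, 93.2, 29.7 and 37.7 FPKM of Ribo-Seq at 2, 4, 6 and 19 h. It peaked at 4 h in both assays and had steps of -2.07 (0.02) and -1.65 (0.04). DDIT4, an inhibitor of mTOR that p53 also induces, had 10.8, 34.2, 10.1 and 12.1 FPKM of RNA, a step of -1.76 (0.08). CHAC1, which degrades glutathione, had a step of -1.64 (0.07), TRIB3, a pseudokinase, one of -1.34 (0.10) and MTHFD2, of the mitochondrial folate cycle, one of -1.34 (0.03). ATF4 itself had 193.6, 198.7, 115.9 and 141.8 FPKM of RNA and 97.4, 129.0, 59.4 and 55.1 FPKM of Ribo-Seq, steps of -0.78 (0.02) and -1.12 (0.05). Between 2 h and 19 h 3 of the 28 were lower in RNA and 1 higher, with a median of -0.22. The shares of all tested genes over that span were 6.69% lower and 2.22% higher. The core TGATG of C/EBP-ATF sites was in 3 of 22 promoters of these genes (13.6%) and in 17.3% of all tested ones.

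Some sterol synthesis genes and ER chaperones were higher at 6 h. Of 21 tested sterol genes (of 25 listed) 3 were higher in RNA and 6 in density, none was lower in either, and the medians were 0.63 and 0.56, against 0.930% and 2.44% higher and medians of 0.06 and -0.17 over all tested genes. INSIG1, the sterol-regulated anchor of SREBP processing, had 20.6, 8.06, 21.0 and 29.8 FPKM of RNA, a step of 1.38 (0.07). HMGCS1, which makes HMG-CoA, had 11.7, 6.92, 18.0 and 23.0 FPKM, a step of 1.38 (0.07). Both had their lowest value at 4 h and were near their 2 h value or above it at 6 h. MSMO1, a methylsterol oxidase, had an RNA step of 1.31 (0.06) and a density step of 0.75 (0.11). With the 2 h library in place of that of 4 h, the median RNA step of the list was 0.13, and that of the ER list described next was 0.62. Of 20 tested ER chaperones and genes of the unfolded protein response 1 was higher in RNA and 2 in density, and 19 of 20 were above 0 in RNA with a median of 0.60. HSPA5, the chaperone BiP, had 229.4, 241.4, 540.4 and 283.6 FPKM of RNA and 302.5, 209.7, 589.0 and 358.4 FPKM of Ribo-Seq. It was high in the 6 h library alone, with steps of 1.16 (0.01) and 1.49 (0.02), and HYOU1, another ER chaperone, had steps of 0.88 (0.02) and 1.44 (0.03) and was also highest at 6 h in both assays.

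Cytokines, NF-kB feedback genes and immediate-early genes, the rapid targets of growth factor signalling, held more lower than higher members, as did all tested genes, of which 3.94% were lower and 0.930% higher in RNA. Of 17 tested cytokine and NF-kB genes (of 36 listed) 7 were lower in RNA and none higher, with a median of -0.76. CXCL1, a chemokine, had 10.9, 6.19, 0.695 and 1.08 FPKM of RNA, and only 21 reads stood behind the 6 h value. CCL2, a monocyte chemokine, had 99.1, 135.3, 53.4 and 61.5 FPKM of RNA, a step of -1.34 (0.05). PTGS2, the inducible cyclooxygenase, had a step of -1.22 (0.03) and IL11 one of -1.27 (0.06). Of 31 tested immediate-early genes 6 were lower and 1 was higher, with a median RNA step of -0.25, and 16 were lower from 2 h to 19 h, against 6.69% of all tested genes. FOSL1, the FRA-1 subunit of AP-1, had 381.8, 260.5, 84.1 and 117.2 FPKM of RNA, a step of -1.63 (0.03), and ERRFI1, an inhibitor of the EGF receptor, one of -1.84 (0.04). DUSP5 and SPRY4, brakes on the ERK pathway, had a step of -1.28 each (0.07 and 0.04). The higher gene was ID2 at 1.12 (0.04). FOS at 1.65 and 1.09 FPKM of RNA was not tested, and EGR1 had a step of -0.42 (0.03). KLF2 had an RNA step of -1.18 (0.12) and a density step of -0.34 (0.12).

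**Figure D3:**
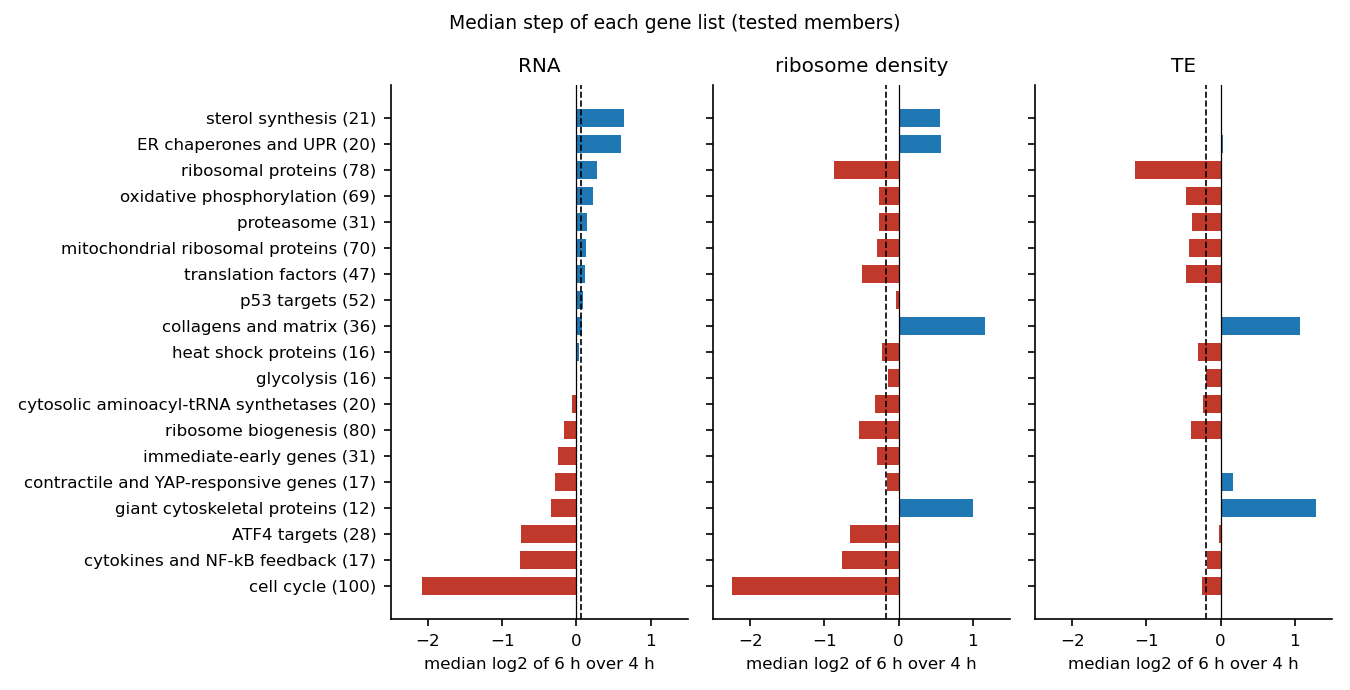
Bars give the median RNA, density and TE step (log2 of 6 h over 4 h) of 19 gene lists, with the number of tested members in brackets and the median over all tested genes as a dashed line. Cell-cycle genes, ATF4 targets and cytokines are lowest in RNA and low in density too, ribosomal proteins are at 0.28 in RNA and -0.88 in density, and collagens and giant cytoskeletal proteins are the highest in TE, at 1.06 and 1.28.

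TE moved with transcript length, which touches each list that follows. Over 6650 tested genes with a recovered length the TE step was higher by 0.18 for each doubling of length, the density step by 0.12 while the slope of the RNA step was -0.07. In the shortest of 10 equal bins (338 to 1115 nt) the median TE step was -0.47, and in the longest (5375 to 13091 nt) it was 0.04. From 2 h to 4 h the slope of density was -0.14 and that of TE -0.12, from 2 h to 6 h that of TE was 0.07 and from 2 h to 19 h it was 0.05. The Ribo-Seq library of 4 h was thus low for long transcripts relative to the other libraries. The paper reports run effects and compares each condition with a control of its own run. In its sample listing the 6 h and 19 h Ribo-Seq libraries stand together with a control, while those of 2 h and 4 h are not listed. The runs of the 2 h and 4 h libraries are thus not stated, and the step and a difference between runs cannot be told apart.

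Ribosomal proteins were held apart from the rest by TE. Of 80 genes 78 were tested. None was called in RNA, where 77 of 78 were above 0 with a median of 0.28. In density 25 were lower with a median of -0.88, and in TE 60 were lower and all 78 were below 0, with a median of -1.15 and a range from -1.74 to -0.39. Among all tested genes 7.14% were lower in density and 3.0% in TE. The large subunit (47 genes) had a median TE step of -1.13 and the small subunit (31 genes) one of -1.16. The median ribosomal protein had a log2 TE of 0.65, 1.05, -0.21 and -0.55 in the libraries of 2, 4, 6 and 19 h, while that of all tested genes was between -0.32 and -0.07. The order of the libraries was thus 4 h above 2 h, and both above 6 h and 19 h.

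Single genes showed the same order. RPL30 had 506.6, 544.8, 665.1 and 526.7 FPKM of RNA and 631.8, 1131, 413.2 and 220.1 FPKM of Ribo-Seq at 2, 4, 6 and 19 h. The RNA values were within a narrow band while Ribo-Seq dropped from 4 h on, and the TE step was -1.74 (0.04), the lowest of the list. RPS12 had 792.6, 1246, 495.6 and 305.1 FPKM of Ribo-Seq and a TE step of -1.63 (0.03), RPL21 one of -1.63 (0.05) and RPL36A one of -1.58 (0.05). RPL34 at -1.55 (0.05), RPS15A at -1.53 (0.04), RPS23 at -1.5 (0.04) and RPL23 at -1.17 (0.03) followed. The weakest steps were those of RPSA at -0.39 (0.09), FAU at -0.61 (0.04) and GNB2L1, the RACK1 scaffold of the small subunit, at -0.67 (0.02). Only unique hits were counted, so reads that ribosomal proteins share with near-identical copies in the reference are missing from these values.

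The step was then set beside length and the library at its start. Ribosomal proteins had a median length of 908.5 nt, and 942 other tested genes within their middle range of lengths had a median TE step of -0.40 with 50 lower by at least 2-fold. With the linear trend in length removed the median of the ribosomal proteins was -0.90 and 28 of 78 were lower. With the 2 h library in place of that of 4 h it was -0.86, with 24 lower, where 77 of the 6667 tested genes were lower. From 2 h to 19 h it was -1.20, with 52 lower, where 134 of the 6667 were lower. The size of the ribosomal protein step thus depended on the library at its start, and its direction was the same in each of these comparisons. Each of them set a library of 2 h or 4 h against one of 6 h or 19 h. As the runs of the 2 h and 4 h libraries are not stated, these comparisons cannot tell a run difference from the step.

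Most mRNAs of ribosomal proteins begin with a C and a run of pyrimidines, the TOP element through which mTOR acts on their translation. At the RefSeq start a C followed by at least 4 pyrimidines stood in 43 of 63 ribosomal proteins with a promoter sequence (68.3%), in 10 of 37 translation factors (27.0%) and in 6.78% of all tested genes. Within the ribosomal proteins the median TE step was -1.18 with such a start, where 34 of 43 were lower, and -1.08 without it, where 15 of 20 were lower. Among tested genes outside both lists, those with such a start had a median TE step of -0.26 and those without one of -0.19. The 30 bases around the start (GRCh38.p14) are shown for 4 ribosomal proteins with low TE steps, with the longest pyrimidine run that holds the start in capitals. The windows are chr13:27251548-27251577 (plus) for RPL21, chr6:132814559-132814588 (plus) for RPS12, chrX:101391001-101391030 (plus) for RPL36A and chr5:82278335-82278364 (minus) for RPS23.
RPL21: ccgCCTCTTTCCTTTCggccggaaccgcca
RPS12: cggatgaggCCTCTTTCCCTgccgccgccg
RPL36A: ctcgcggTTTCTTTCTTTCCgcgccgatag
RPS23: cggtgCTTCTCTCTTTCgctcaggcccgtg

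Translation factors moved less. Of 47 tested factors (of 50) 3 were lower in TE and 1 was higher, against 3.0% and 1.47% of all tested genes, with a median of -0.46 at a median length of 2441 nt. The 7 genes listed under elongation, TPT1 among them, had a median TE step of -0.93. EEF1A1, which brings aminoacyl-tRNA to the ribosome, had 1939, 1483, 1055 and 817.7 FPKM of Ribo-Seq and an RNA step of 0.44, so that its TE step was -0.93 (0.01). TPT1, with a TOP element of its own, was at -1.30 (0.04), EEF1G at -1.08 (0.05) and EEF2, the translocase, at -0.50 (0.01). Of the 35 initiation factors EIF4B was at -1.01 (0.05) and EIF4G1, the scaffold of the cap complex and a transcript of 5653 nt, at 1.12 (0.03). Ribosome biogenesis genes had a median TE step of -0.41 and a median RNA step of -0.17, with 8 of 80 lower in density, a share near the 7.14% of all tested genes. MRTO4, DKC1 and POLR1E, factors of ribosome assembly, modification and rRNA transcription, had density steps of -1.34 (0.08), -1.25 (0.09) and -1.06 (0.18).

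Mitochondrial ribosomal proteins, oxidative phosphorylation and the proteasome, 3 lists of mostly short transcripts, had median TE steps of -0.42, -0.47 and -0.38, close to those of other genes of their lengths at -0.34, -0.38 and -0.28. In TE 1 of 70, 0 of 69 and 0 of 31 were lower by at least 2-fold, against 3.0% of all tested genes. The TE of oxidative phosphorylation genes had medians of 1.13, 1.42, 0.85 and 0.81 at 2, 4, 6 and 19 h, so the drop after 4 h was seen there too at a smaller size. Aminoacyl-tRNA synthetases, glycolysis genes and heat shock proteins had no member called in RNA, density or TE, with median TE steps of -0.24, -0.20 and -0.31. GAPDH had a TE step of -0.36 (0.01) and ACTB, whose RNA went from 4190 to 2700 FPKM, one of 0.48 (0.01).

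**Figure D4:**
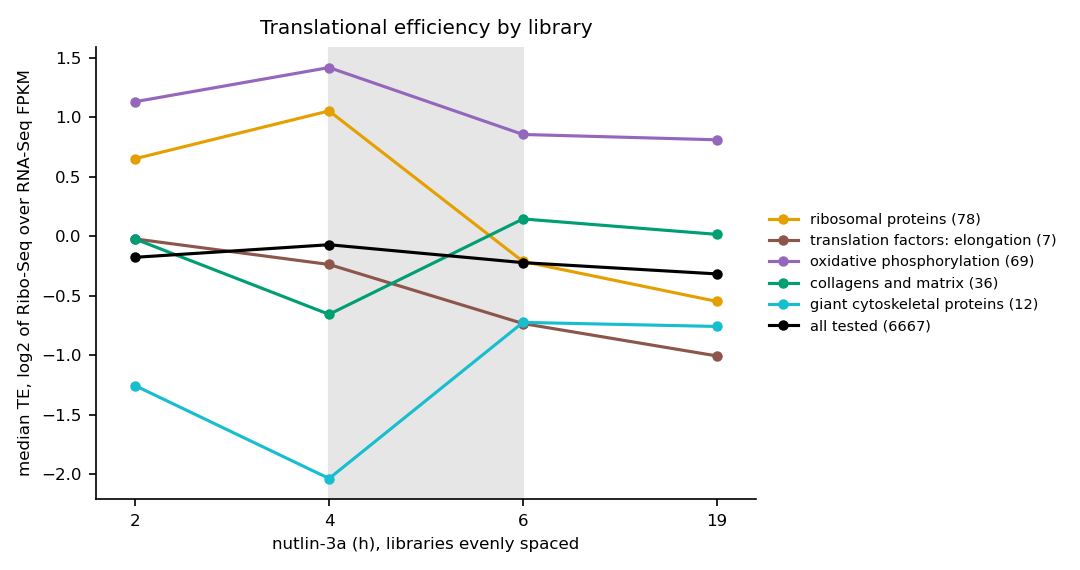
The median TE (log2 of Ribo-Seq over RNA-Seq FPKM) of 5 groups of genes and of all tested genes is drawn for the libraries of 2, 4, 6 and 19 h, evenly spaced, with the 4 h to 6 h step as a grey band. Ribosomal proteins went from 1.05 to -0.21 in the band and stayed low at 19 h, while collagens and matrix went from -0.66 to 0.14 after having been at -0.02 at 2 h.

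Collagens and matrix proteins, the secreted products that fibroblasts are known for, rose in density while none of them was called in RNA. Of 41 genes 36 were tested. The median RNA step was 0.08, while 23 were higher in density and 23 in TE, with medians of 1.16 and 1.06, and none was lower in either. Among all tested genes 2.44% were higher in density and 1.47% in TE. All 16 collagens were above 0 in density and in TE. COL1A1 had 1558, 1634, 1501 and 2923 FPKM of RNA and 1992, 1070, 3984 and 5262 FPKM of Ribo-Seq at 2, 4, 6 and 19 h. Its Ribo-Seq value was lowest at 4 h, and the density step was 1.90 (0.01) and the TE step 2.02 (0.01). COL7A1, the anchoring fibril collagen, had 20.3, 8.51, 74.2 and 109.9 FPKM of Ribo-Seq with a TE step of 2.48 (0.05), and its RNA was at 26.6, 46.6, 73.0 and 109.1 FPKM. COL6A3 had a TE step of 1.92 and HSPG2, the proteoglycan perlecan, one of 2.70, the highest of all tested genes, both without a recovered length and thus without a counting SE. COL3A1 had a TE step of 0.16 (0.03) and SPARC, a short matrix glycoprotein, one of 0.10 (0.01), with RNA steps of 0.60 (0.01) and 0.64 (0.01).

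This rise depended on the 4 h library. With the 2 h library in its place the median density step of collagens and matrix was 0.37, with 3 of 36 higher, and the median TE step 0.22, with 2 higher. From 2 h to 19 h the median TE change was 0.13, with none called. The list's median TE at 2, 4, 6 and 19 h was -0.02, -0.66, 0.14 and 0.02, so the 4 h library stood apart from the others. With the trend in length removed 17 of 34 genes with a length were higher in density and 13 in TE, with medians of 1.00 and 0.88. Other tested genes within the middle range of their lengths, 1667 in number, had a median TE step of -0.10 and 32 of them were higher.

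Giant cytoskeletal proteins, which are not secreted, moved in the same direction. Of 12 tested genes (of 15) 9 were higher in TE and 6 in density, with a median TE step of 1.28 and a median RNA step of -0.34. The shares of all tested genes were 1.47% in TE and 2.44% in density. PLEC, a linker of intermediate filaments, had 78.2, 28.2, 99.4 and 117.7 FPKM of Ribo-Seq and a TE step of 2.30. With the 2 h library in place of that of 4 h the median density step was -0.11 and 1 of 12 was higher in TE. LRP1, a very large endocytic receptor, had 112.7, 40.7, 207.2 and 308.3 FPKM of Ribo-Seq and a TE step of 2.50, and NOTCH1, a receptor of 9371 nt, one of 2.24 (0.07).

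**Figure D5:**
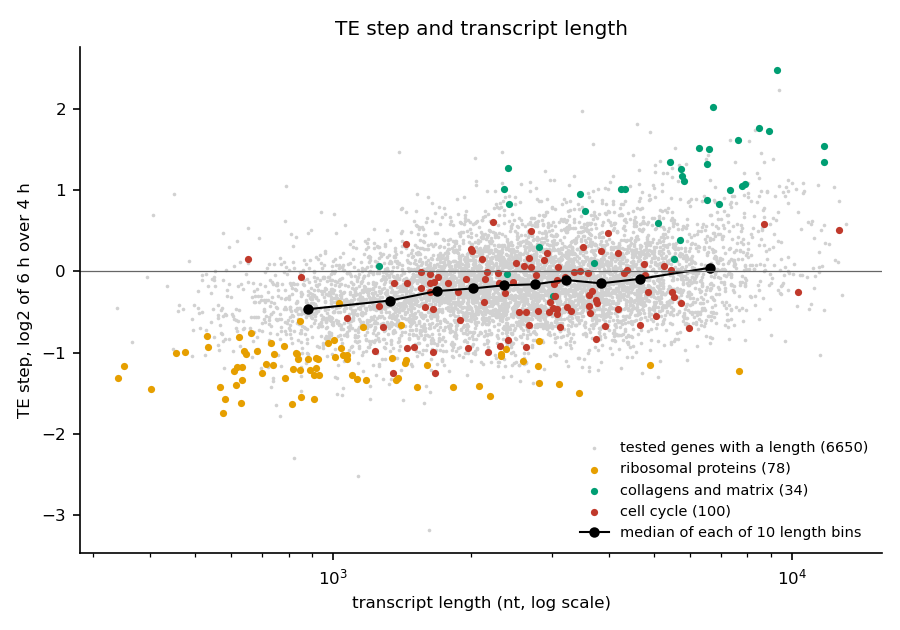
The TE step (y axis, log2 of 6 h over 4 h) is plotted against transcript length (x axis, nt, log scale) for 6650 tested genes with a recovered length, with 3 lists in colour and the medians of 10 length bins in black. The bin medians go from -0.47 to 0.04, most ribosomal proteins lie below them, and most collagens and matrix genes lie above them.

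Among genes with at least 5 FPKM at both times in both assays, the lowest TE steps included those of a histone and of other genes outside the lists. HIST1H2BK, a histone H2B, had 16.0, 17.9, 17.7 and 21.8 FPKM of poly(A) RNA and 504.7, 566.5, 113.2 and 61.7 FPKM of Ribo-Seq, a TE step of -2.30 (0.12). Poly(A) RNA can miss histone mRNAs that lack a poly(A) tail, so this TE step may not measure a change in translation. KIAA0101, the PCNA-associated factor, had an RNA step of -1.11 (0.11) and a density step of -2.89 (0.12). RCC1, the exchange factor of RAN, had 57.3, 49.6, 11.5 and 7.86 FPKM of Ribo-Seq and a TE step of -1.62 (0.14), and MORN2 one of -1.64 (0.26). Contractile and YAP-responsive genes, 17 of them tested, held 1 member lower in RNA and none higher, against 3.94% and 0.930% of all tested genes. In density 2 were higher and none lower, against 2.44% and 7.14%, and in TE 1 was higher, against 1.47%. The gene lower in RNA was the focal adhesion protein ZYX at -1.22 (0.02). ACTA2, smooth muscle actin, had 21.0, 48.3, 93.3 and 95.4 FPKM of RNA with steps of 0.95 (0.04) in RNA and 1.12 (0.05) in density.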

How the data were processed

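RNA-Seq and Ribo-Seq of BJ fibroblasts on nutlin-3a were analysed from 2 deposited tables, 1 an assay, of which 8 columns (2, 4, 6 and 19 h) were used and 2 (0 h) were not. The assay of each table was taken from its name. The authors aligned reads with Bowtie to protein-coding transcripts of Ensembl release 65, took 1 isoform per gene and unique hits only, and deposited FPKM with 3 decimals. The submitters' processing notes name hg19. A single recovered length fitted both assays in 11192 of the 11258 genes listed for both. The Ribo-Seq values of these genes were thus scaled to the same length as their RNA-Seq values. Whether the Ribo-Seq columns count reads of the whole transcript or of the coding region is not stated by the sources used here. The paper took translation levels from coding-region reads, so the TE here need not equal that of the paper.

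Steps were computed with Python 3.11.15, numpy 2.4.6 and pandas 2.3.3, with a floor of 1 FPKM, a filter of 5 FPKM and a call at 2-fold. Library totals, transcript lengths and read numbers were recovered from the step size of low FPKM values, and counting SEs follow from them. The computation was tested on simulated data starting from approximate totals. Each group held 1 library, so there was no replicate check and no test.

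The members and the 19 gene lists were chosen with earlier results of these data known, and the 2 h start and the length correction after seeing the data. Named genes were the 12 highest and 12 lowest RNA steps whose density step passed 2-fold the same way, the 8 highest and 8 lowest TE steps with at least 5 FPKM at both times in both tables, the 3 largest steps of each list or role (TE for cytosolic and mitochondrial ribosomal proteins, translation factors and giant proteins, RNA otherwise), and the fixed genes CDKN1A, MDM2, SESN1, SESN2, GDF15, E2F1, CCNB1, MKI67, FOS, EGR1, ATF4, RPL34, RPL23, RPS23, EEF1A1, EEF2, GAPDH and ACTB. Others were named after their values were seen. A few genes that the rule names are not reported here.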

Additional observations from a re-analysis of the deposited data

Results flagged for a closer look

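Histone mRNAs outside the tested genes gave a signal in Ribo-Seq that the comparisons did not use. Of 28 histone genes listed for both assays, 25 failed the filter, and 21 of them were below 1 FPKM of poly(A) RNA at 4 h and 6 h. Their summed Ribo-Seq value was 18739 FPKM at 4 h and 3270 FPKM at 6 h, after 16886 FPKM at 2 h and before 1465 FPKM at 19 h. The median density step of the 25 was -2.67, from -3.54 to -0.91, and 24 were lower by at least 2-fold. Replication-dependent histone mRNAs are known to lack a poly(A) tail, and near-identical copies share reads that unique alignment leaves out.

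Both Ribo-Seq libraries held 2 transcripts with a large share of the reads and little RNA. ZNF354B took 3.08% of Ribo-Seq reads at 4 h and 5.09% at 6 h, at 1.39 and 1.40 FPKM of RNA. TMC5 took 1.48% and 1.97%, at 0.092 and 0.125 FPKM of RNA. Leaving both out shifted the density steps by 0.038.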

How the results depend on the processing

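The alternatives were run on the counts of called genes and on the list medians, and 2 of them, the 2 h library in place of that of 4 h and the removal of the length trend, were chosen after seeing the data. Without the filter the counts were 144 higher in RNA, 298 higher and 721 lower in density, and 188 higher and 384 lower in TE. With a filter of 20 FPKM they were 20 higher and 114 lower in RNA, 67 and 204 in density, and 60 and 99 in TE. At 1.5-fold they were 366 and 591 in RNA, 569 and 1386 in density, and 368 and 1054 in TE. With a cut-off in local SDs that slides with the level 105 genes were higher in RNA, and 187 were higher and 441 lower in TE. Centred on the median gene, 262 were higher in density, and 183 were higher and 77 lower in TE. Without the length trend 61 were higher in TE. From 2 h to 6 h, 124 were higher in RNA, and 55 were higher and 77 lower in TE. The median RNA step of cell-cycle genes was -1.77 with a floor of 5 FPKM, -1.86 with a pseudocount of 1 and -2.47 from 2 h. That of p53 targets was 0.26 with a filter of 20 FPKM, 0.037 when centred and 1.05 from 2 h. The median density step of collagens and matrix was 1.13 with the higher floor, 1.13 with the pseudocount, 1.33 when centred, 1.00 without the length trend, 1.20 without the 2 most abundant Ribo-Seq transcripts and 0.37 from 2 h. The median TE step of ribosomal proteins was -0.95 when centred, -0.90 without the length trend, -1.11 without those 2 transcripts and -0.86 from 2 h. The median density step of giant cytoskeletal proteins changed sign from 2 h, to -0.11, and the cause was not tested. Of 407 values of the 53 other list medians 254 moved by less than the counting SE of a member. No paired analysis was possible because each group held 1 library. Ribo-Seq at 6 h had a median of 452 reads per tested transcript, and the median counting SE of a density step was 0.087.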
